A study of Mus musculus with 5 samples.

Results

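The small RNAs of the 2 mouse gametes, spermatozoa and the ovulated oocyte, were compared across the 4 classes reported for each: miRNAs, fragments of snoRNAs, piRNAs, and endo-siRNAs, the small interfering RNAs that a cell makes itself. Both libraries were taken by their sample labels, as 2 of the series' 5, with 1 library a side. Spermatozoa came from the cauda epididymis and vas deferens of mature CD-1 males, and were passed through a Percoll gradient of 45% and 90% and then given a hypo-osmotic shock, steps used against other cells. Oocytes, labelled Metaphase II but called fully grown in the protocol, came from the oviducts of 4- to 5-week-old C57BL/6 females given 5 IU PMSG and, 48 hours later, 5 IU HCG. The 15210 oocytes were freed of cumulus cells with hyaluronidase and of the zona with acid, and sequenced as 1 pool. The protocol, shared with the zygotes, tells of mating after HCG without saying whether oocyte donors were mated. The labels give neither the age in weeks nor the number of males. No allele or drug treatment other than these is labelled in either group. Strain, sex, hormone priming and preparation all differ along with the cell type and cannot be told apart from it. The other 3 libraries, given for reference only, are zygotes 15 to 18 hours after fertilization (C57BL/6 mothers, DBA/6J fathers), and from CD-1 mice spermatogonia of testes at postnatal day 8.5 and primordial germ cells of male gonads at embryonic day 13.5. The tables hold no mRNA, so the cell labels could be set only against small RNA markers, given with the results.

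A miRNA is cut from a hairpin by Drosha and Dicer, is loaded into an Argonaute protein, and recognises targets mainly through its seed, bases 2 to 8. PiRNAs guide PIWI proteins and are best known for silencing transposons in the male germ line. Endo-siRNAs are made by Dicer out of long paired RNA and are known from mouse oocytes, where a shortened form of Dicer is made. SnoRNAs guide the modification of ribosomal RNA (C/D box snoRNAs 2′-O-methylation, H/ACA box snoRNAs pseudouridylation), and the reads here, of 18 to 32 nucleotides, can only be fragments of them.

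The miRNAs on which the comparison turns are shown here as RefSeq mature sequences (GRCm38.p6), 5′ to 3′, with the seed in capitals. The first group, high in spermatozoa, holds pairs that share a seed across separate loci (miR-34b-5p with miR-449a-5p, miR-10a-5p with miR-10b-5p), and miR-451a, miR-144-3p and miR-29a-3p.
miR-34b-5p: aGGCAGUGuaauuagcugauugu
miR-449a-5p: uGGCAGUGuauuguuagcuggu
miR-10a-5p: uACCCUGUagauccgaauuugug
miR-10b-5p: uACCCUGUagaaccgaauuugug
miR-451a: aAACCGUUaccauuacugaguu
miR-144-3p: uACAGUAUagaugauguacu
miR-29a-3p: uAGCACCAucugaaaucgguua
The second group, high in the oocyte, holds miR-182-5p, miR-183-5p, miR-3471, miR-202-5p and 3 members of the miR-290 cluster, which share 1 seed.
miR-182-5p: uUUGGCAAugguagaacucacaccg
miR-183-5p: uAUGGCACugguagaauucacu
miR-3471: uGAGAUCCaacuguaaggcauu
miR-202-5p: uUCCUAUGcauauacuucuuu
miR-291a-3p: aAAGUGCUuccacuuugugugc
miR-294-3p: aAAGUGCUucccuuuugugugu
miR-295-3p: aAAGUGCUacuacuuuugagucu
The third group is abundant in both gametes, and shows the seeds of the let-7, miR-30 and miR-148 families.
let-7f-5p: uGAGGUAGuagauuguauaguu
let-7a-5p: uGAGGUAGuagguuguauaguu
let-7g-5p: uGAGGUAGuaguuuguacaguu
miR-30a-5p: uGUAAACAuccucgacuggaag
miR-30c-5p: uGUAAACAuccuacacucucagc
miR-148a-3p: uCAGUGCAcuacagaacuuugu
The fourth group gives both arms of 3 hairpins whose leading arm was not the same in the 2 gametes, so that the leading seed was not the same either.
miR-871-5p: uAUUCAGAuuagugccagucaug
miR-871-3p: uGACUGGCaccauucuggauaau
miR-872-5p: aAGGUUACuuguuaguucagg
miR-872-3p: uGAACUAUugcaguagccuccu
miR-106b-5p: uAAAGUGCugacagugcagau
miR-106b-3p: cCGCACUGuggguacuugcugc
The last pair lies in 1 cluster on chromosome 14, and its members lay on opposite sides in the 2 gametes.
miR-17-5p: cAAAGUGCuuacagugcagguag
miR-18a-5p: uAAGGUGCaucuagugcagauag

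The 4 tables held 21827067 reads in spermatozoa and 43242109 in the oocyte. Levels are given as RPM, the reads of an entry per 1000000 reads of its class in its library. An entry was called measured where it had at least 100 reads over the pair, and called higher or lower where the 2 libraries were at least 4-fold apart. Brackets give exact 95% intervals, which cover counting error only, since copies made by PCR are not independent molecules. With 1 library per gamete, none of the differences below could be checked in a replicate, and no test was made between the gametes. A count of 3 reads, the floor used against 0 reads, corresponds to 2.47 RPM for a miRNA in spermatozoa and 1.49 RPM in the oocyte. In these bulk samples fewer cells of a type and less RNA per cell cannot be told apart.

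The gametes differed most in how their reads were divided between piRNAs and endo-siRNAs. Entries listed as piRNAs took 83.4% of the reads of the 4 classes in spermatozoa [83.4 to 83.5] and 33.6% in the oocyte [33.5 to 33.6]. Entries listed as endo-siRNAs took 6.28% in spermatozoa [6.27 to 6.29] and 60.1% in the oocyte [60.0 to 60.1]. MiRNAs took 5.57% and 4.65%, and snoRNA fragments 4.71% and 1.73%. Without the 5 most abundant entries of each class in either library, miRNAs took 5.34% and 2.71%, snoRNA fragments 0.313% and 0.208%, and endo-siRNAs 12.2% and 62.6%. How the reads spread within a class also differed. In spermatozoa 3 piRNA entries held 50% of that class's reads where 21 did in the oocyte, while for endo-siRNAs it took 94 entries in spermatozoa and 403 in the oocyte. For miRNAs 3 and 5 entries held 50%, and for snoRNAs 1 entry did in each gamete.

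The count of measured entries past 4-fold also differed by class. Of 300 measured miRNAs, 80 (26.7%) were at least 4-fold higher in spermatozoa and 79 (26.3%) at least 4-fold lower, with a median log2 difference (spermatozoa minus oocyte) of -0.09. For 102 snoRNA entries it was 8 (7.84%) and 46 (45.1%), with a median of -1.40. For 5354 piRNAs it was 1693 (31.6%) and 1889 (35.3%), with a median of -0.07. For 21415 endo-siRNAs it was 1423 (6.64%) and 16889 (78.9%), with a median of -3.87. Of these 21415 entries 11963 had reads that round to 0 in spermatozoa. Their median therefore depends on the pseudocount, the reads added before a log2 difference is taken, and was -1.10 with a pseudocount of 5. It also followed the read minimum, at 1.14 for 1 read, -1.95 for 20 and -6.56 for 1000. The counts past 4-fold depend on the scaling for snoRNAs, piRNAs and endo-siRNAs. With reads scaled to all 4 classes together, 19 snoRNAs were higher and 22 lower, 2343 piRNAs were higher and 1371 lower, and 844 endo-siRNAs were higher, with their median at -7.13. With the factor behind the deposited normalized column it was 13 and 26 snoRNAs and 2065 and 1538 piRNAs, and 770 endo-siRNAs were higher, with their median at -7.59. With edgeR TMM or DESeq2 factors 14 snoRNAs were higher and 25 lower, and with the 5 most abundant entries of either library left out of the totals 16 and 16.

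**Figure D1:**
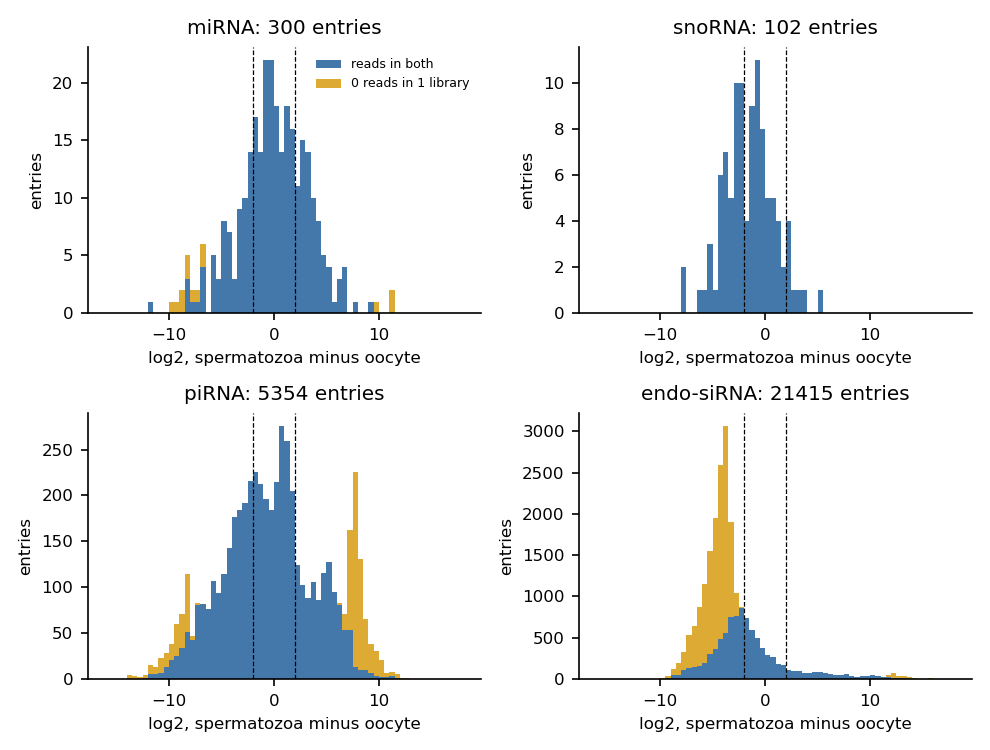
Number of measured entries (vertical axis) by log2 difference in RPM, spermatozoa minus oocyte (horizontal axis), for the 4 classes. Dashed lines mark 4-fold; yellow bars are entries whose reads round to 0 in 1 of the 2 libraries, which form most of the left side for endo-siRNAs.

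Among miRNAs the 10 most abundant of each gamete took about the same share of its own reads, and 5 entries stood in both lists: miR-143-3p, let-7f-5p, let-7g-5p, let-7a-5p and miR-21a-5p. The 10 most abundant of spermatozoa held 63.4% of miRNA reads there and 28.9% in the oocyte. The 10 most abundant of the oocyte held 63.7% there and 36.3% in spermatozoa. Those called higher in spermatozoa held 62.5% of that library's miRNA reads and 5.09% of the oocyte's. Those called lower held 1.56% and 43.6%. Of the 300, 164 had at least 100 reads in each library, and 36 of these (22%) were higher and 20 (12.2%) lower. The other 136 passed the minimum with fewer than 100 reads in 1 or both of the gametes. A member that passed only through the gamete where it is high had to differ, so the counts of list members below describe what passed and support no direction, and the number with 100 reads in each library stands beside them.

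**Figure D2:**
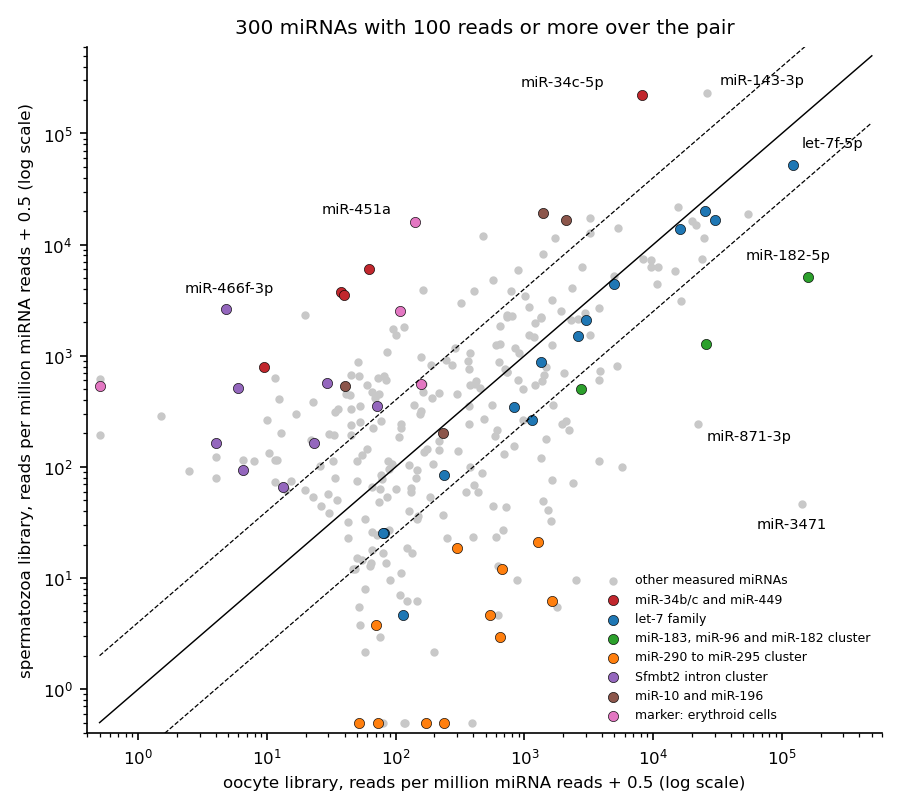
Level of each of 300 measured miRNAs in the oocyte (horizontal axis) and in spermatozoa (vertical axis), in RPM plus 0.5, both on log scales. The solid line marks equal levels and the dashed lines 4-fold. The miR-34b/c and miR-449 points lie far above the lines, the miR-290 cluster and miR-3471 far below, and let-7 5p arms lie between the dashed lines.

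The miR-34 and miR-449 family was the most abundant group found high in spermatozoa. Their 5p arms share a seed, and they are known from late male germ cells and from cells with motile cilia. miR-34c-5p, the leading member, stood at 221799 RPM in spermatozoa and 8144 in the oocyte. miR-34b-3p, the other arm of the neighbouring hairpin, stood at 6083 and 61.7 RPM and was 98.6-fold higher in spermatozoa [82.6 to 119]. miR-449a-5p, which lies in an intron of Cdc20b, stood at 3534 and 39.3 RPM. All 5 measured members were past 4-fold (26.7% of all measured miRNAs were), with a median of 6.48. Only miR-34c-5p and miR-34b-3p had 100 reads in each library, and the other 3 passed the minimum through spermatozoa. miR-34b-5p, miR-34b-3p, miR-34c-3p and miR-449a-5p lay within log2 differences of 6.42 and 6.66, while miR-34c-5p lay at 4.77. The related miR-34a-5p, which has a gene of its own, stood at 143 RPM in spermatozoa and 59.7 in the oocyte and was not past 4-fold. In the 3 other libraries miR-34c-5p stood at 5363 RPM in the zygote, 874 in spermatogonia and 3181 in primordial germ cells, all under the level in spermatozoa.

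Several other groups were high in spermatozoa across loci. miR-10a-5p and miR-10b-5p, encoded within the Hox gene clusters, stood at 16614 and 19056 RPM in spermatozoa and at 2116 and 1394 in the oocyte. The former was 7.85-fold higher in spermatozoa [7.59 to 8.12] and the latter 13.7-fold higher in spermatozoa [13.1 to 14.2]. Their precursors lie on chromosome 11 at 96317165 to 96317274, outside other genes on that strand, and on chromosome 2 at 74726070 to 74726137, in introns of Hoxd3 and Hoxd4. miR-196b-5p, also of the Hox clusters, stood at 531 and 39.8 RPM, but miR-196a-5p at 200.2 and 231. The miR-29 family, known for targeting matrix and DNA methyltransferase genes, was past 4-fold in 3 of 3 measured members, 2 of them with 100 reads in each library, beside 26.7% of all measured miRNAs. miR-29a-3p stood at 2952 RPM in spermatozoa and 322 in the oocyte, and miR-29b-3p at 877 and 50.2. miR-191-5p was also high, at 17192 and 3237 RPM. miR-221-3p and miR-222-3p, a pair on the X chromosome that targets the cell cycle inhibitor p27, were 8.04- and 7.24-fold higher.

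The Sfmbt2 cluster, a large rodent array of near-identical hairpins in an intron of the imprinted gene Sfmbt2, was high in spermatozoa at low levels. Of 74 listed entries 8 were measured. All 8 were at least 4-fold higher in spermatozoa, beside 26.7% of all measured miRNAs, with a median of 4.10. Only 1 of them had 100 reads in both libraries. The other 7 passed the minimum through spermatozoa. miR-466f-3p had the highest ratio of any measured miRNA with oocyte reads, at 2625 RPM in spermatozoa and 4.32 in the oocyte, or 607-fold higher in spermatozoa [308 to 1283]. It has 4 annotated loci in GENCODE, 3 of them in Sfmbt2 on chromosome 2 and 1 on chromosome 13, and reads shared by near-identical copies cannot be placed. miR-466i-5p, counted here by its name though its locus is on chromosome 13, stood at 511 and 5.46 RPM. miR-7210-5p had 748 reads in spermatozoa and 0 in the oocyte and was at least 412-fold higher in spermatozoa, by the floor of 3 reads.

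Most of the measured miRNAs that mark blood cells and epithelium were also higher in the spermatozoa library. miR-451a, a red blood cell miRNA that is matured by Argonaute2 without Dicer, stood at 15832 RPM in spermatozoa and 141 in the oocyte. Its neighbour miR-144-3p had 656 reads and 0, and was at least 361-fold higher in spermatozoa. The erythroid list summed to 19450.3 RPM in spermatozoa and 428 in the oocyte, with 3 of 4 measured members past 4-fold and 3 with 100 reads in each library. The leukocyte list summed to 4647 and 1515 RPM, with 5 of 6 higher and 1 lower, beside 26.7% and 26.3% of all measured miRNAs. Only 1 of these 6 had 100 reads in each library. Within it miR-142-3p, made in cells of the blood lineage, stood at 2304 and 19.4 RPM, and miR-155-5p, induced in activated immune cells, at 48.5 and 1384. miR-150-5p, of lymphocytes, had 347 reads in spermatozoa and 2 in the oocyte, and miR-142-5p 235 and 0. The epithelial miR-200 family summed to 22968 and 9966 RPM, with 5 of 7 higher and 5 with 100 reads in each library. miR-200c-3p alone of its 3p arms lay within 1.5-fold, at 7404 and 8355 RPM.

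miR-143-3p, known from smooth muscle and connective tissue cells, was the most abundant spermatozoal miRNA, at 230279 RPM against 26338 in the oocyte, or 8.74-fold higher in spermatozoa [8.66 to 8.82]. Its partner in the same cluster, miR-145a-5p, stood at only 459 and 216 RPM. Of the other muscle markers, miR-1a-3p stood at 904 and 364 RPM and miR-206-3p at 35.4 and 149.7. The 2 endothelial entries summed to 375 and 139 RPM, and the neuron list to 1778 and 1471. Of 6 measured neuron entries 2 were higher and 2 lower, beside 26.7% and 26.3% of all measured miRNAs. The liver marker miR-122 was not measured, listed at 0 in spermatozoa and at 1.49 RPM in the oocyte. Across all marker lists 52 entries held 28.1% of miRNA reads in spermatozoa and 4.06% in the oocyte, or 5.07% and 1.43% without miR-143-3p. Of the 80 miRNAs called higher, 17 are on these lists and 63 are not, and of 79 called lower 4 are. The lists hold 29 of the measured miRNAs. Of the 271 measured outside them, 63 (23.2%) were higher and 75 (27.7%) lower. The part of other cells in the results above and below was not tested.

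**Figure D3:**
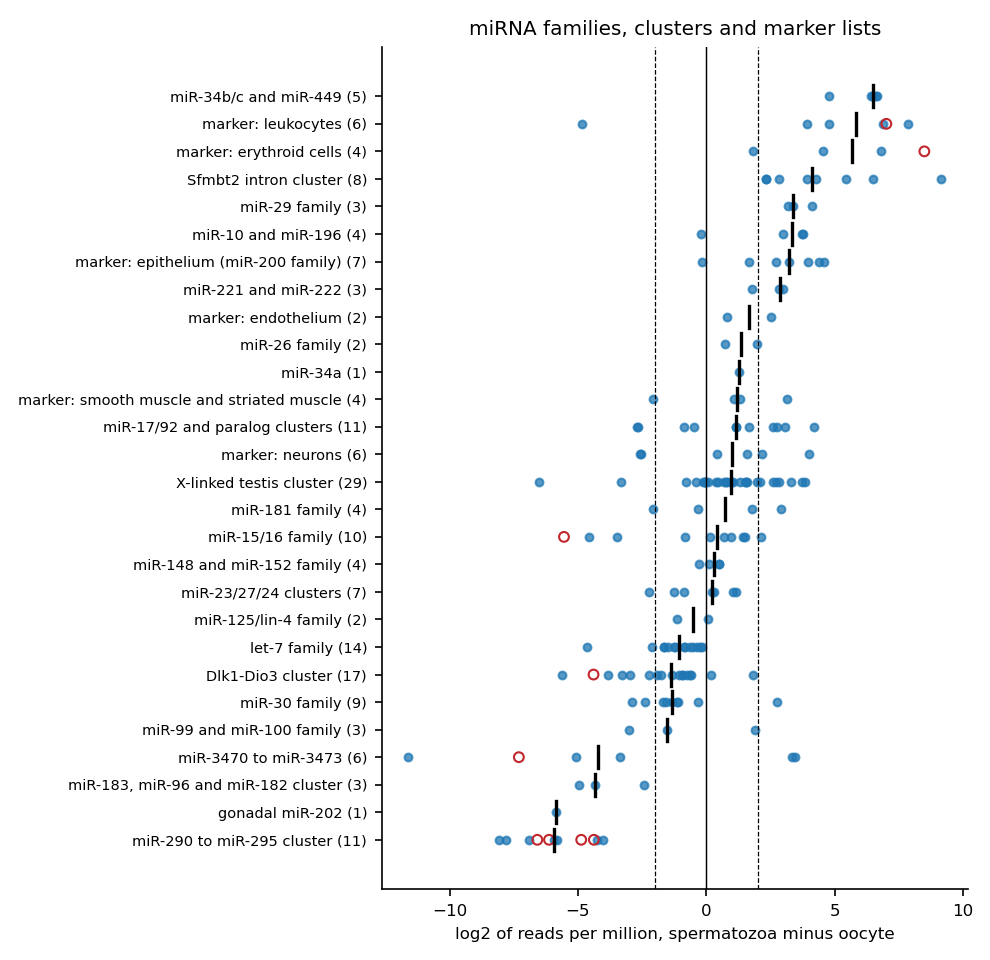
Log2 difference in RPM, spermatozoa minus oocyte, of the measured members of each miRNA family, cluster or marker list (rows, number measured in brackets), with the median as a black bar and dashed lines at 4-fold. Open red circles have 0 reads in 1 library and are drawn at the bound from 3 reads. The miR-34b/c and miR-449 row lies wholly to the right and the miR-290 row wholly to the left.

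In the oocyte miR-182-5p was the most abundant single miRNA. Its cluster, with miR-183 and miR-96, is known from sensory organs and is transcribed as 1 unit on chromosome 6, with precursors between 30165918 and 30169737 and outside other genes on that strand. miR-182-5p stood at 158891 RPM in the oocyte and 5113 in spermatozoa, and was 31.1-fold lower in spermatozoa [30.3 to 31.9]. miR-183-5p stood at 25873 and 1274 RPM, and miR-96-5p at 2737 and 506. All 3 were past 4-fold, beside 26.3% of all measured miRNAs, and each had over 100 reads in both libraries. The fold was not the same along the cluster: 31.1 for miR-182-5p, 20.3 for miR-183-5p and 5.41 for miR-96-5p. In primordial germ cells miR-182-5p stood at 279837 RPM, above the oocyte, and in spermatogonia at 35220.4.

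miR-3471 had the lowest ratio of all measured miRNAs. It stood at 144586 RPM in the oocyte and 46.0 in spermatozoa, from 290685 and 56 reads, and was 3141-fold lower in spermatozoa [2418 to 4158]. GENCODE places its 2 precursors on chromosome 4, at 3537090 to 3537191 and 10845500 to 10845630, both outside other genes on their strand. Of the 6 measured entries named miR-3470 to miR-3473, 4 were lower and 2 higher in spermatozoa, beside 26.3% and 26.7% of all measured miRNAs. Only 2 of the 6 had 100 reads in each library. miR-3470a stood at 3807 RPM in the oocyte and 113 in spermatozoa. miR-3472, in an intron of Rtl4 on the X chromosome, had 781 and 0 reads and was at least 158-fold lower in spermatozoa. In the other direction miR-3473b stood at 451 RPM in spermatozoa and 40.8 in the oocyte. These entries share a number range in their names, and no common seed was required of them.

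The miR-290 to miR-295 cluster, the leading miRNA cluster of mouse embryonic stem cells, had few reads in spermatozoa and low levels in the oocyte. Its 11 measured members had 80 reads in all in spermatozoa and 11393 in the oocyte. All 11 were lower, beside 26.3% of all measured miRNAs, with a median of -6.97, or -5.94 with the 4 at 0 reads set to 3 reads. None had 100 reads in both libraries, so each passed the minimum through the oocyte alone. miR-291a-3p stood at 1644 RPM in the oocyte and 5.75 in spermatozoa, and was 286-fold lower in spermatozoa [138 to 711]. miR-295-3p stood at 1265 and 20.6 RPM and miR-294-3p at 670.5 and 11.5. miR-292-5p had 1291 reads in the oocyte and 3 in spermatozoa, and miR-292-3p 1094 and 5. The cluster summed to 5701 RPM in the oocyte, 10598 in the zygote and 42592 in primordial germ cells. It lies on chromosome 7 between 3218626 and 3220841.

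Other miRNAs high in the oocyte came from many loci. miR-202-5p, a miRNA of the gonads, stood at 5698 RPM in the oocyte and 99.5 in spermatozoa, and at 14472 in spermatogonia. miR-147-5p, within an exon of AA467197 on chromosome 2, stood at 1784 and 4.93 RPM, or 362-fold lower in spermatozoa [166 to 986]. miR-664-5p stood at 2510.4 and 9.04 RPM. Its precursor overlaps the snoRNA gene Snora36b in an intron of Rab3gap2, so reads of the 2 share a position. miR-3547-3p, in an intron of Baiap3, stood at 617 and 4.11 RPM, and miR-335-3p, in an intron of the imprinted gene Mest, at 882 and 9.04. miR-129-5p had 395 reads in the oocyte and 2 in spermatozoa, a ratio of 119 with an interval of 32.9 to 990.1. On the X chromosome 4 of 4 measured entries matched to the cluster with miR-322, miR-542 and miR-503 were lower, beside 26.3% of all measured miRNAs, but only miR-322-5p had 100 reads in each library. miR-322-5p, which has the miR-15/16 seed, stood at 1336 and 121 RPM. By contrast miR-16-5p stood at 5302 in the oocyte and 14226 in spermatozoa. In the Dlk1-Dio3 cluster, an imprinted locus, 6 of 17 measured members were lower and 0 higher (median -1.34), beside 26.3% and 26.7% of all measured miRNAs and with 4 of the 17 at 100 reads in each library. They were led by miR-541-5p at 1600.1 and 32.1 RPM.

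The let-7 family, whose members restrain growth genes and mark differentiated cells, was abundant in both gametes. It summed to 112146 RPM in spermatozoa and 208628 in the oocyte. let-7f-5p, the leading member in both, stood at 52047 and 122192 RPM and was 2.35-fold lower in spermatozoa [2.33 to 2.37]. let-7g-5p stood at 19886 and 25312 RPM and let-7a-5p at 16790.5 and 30434. All 9 measured 5p arms, miR-98-5p among them, lay between log2 differences of -1.25 and -0.17. With reads scaled to all 4 classes together each log2 difference is 0.26 higher, which puts let-7i-5p and let-7c-5p above 0. Beside 26.7% and 26.3% of all measured miRNAs, 0 of 14 measured family entries were past 4-fold higher and 2 lower, let-7f-1-3p and let-7j. The latter, at a log2 difference of -2.12, loses its call under that scaling, while with edgeR TMM factors 3 are lower. Across the 3 other libraries the family summed to 241889 RPM in the zygote, 88845 in spermatogonia and 6524 in primordial germ cells.

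Among other families some members were near equal in the 2 gametes and others were not. The miR-148 and miR-152 family had 4 measured members within 1.5-fold, and miR-148a-3p stood at 21908 RPM in spermatozoa and 15534 in the oocyte. miR-30c-5p stood at 16189 and 20152 RPM and miR-378a-3p, in an intron of Ppargc1b, at 15056 and 21485. Both were among the entries taken for lying within 1.5-fold, so that choice sets their closeness. Within the miR-30 family the 5p arms did not move as 1 group. Of its 9 measured entries 1 was higher and 2 lower, beside 26.7% and 26.3% of all measured miRNAs, and 7 had 100 reads in each library. miR-30b-5p stood at 11578 RPM in spermatozoa and 1732 in the oocyte, while miR-30d-5p, its neighbour on chromosome 15, stood at 5799 and 14772, and miR-30e-5p at 7399 and 23756. miR-21a-5p, within Vmp1 and known from growing and injured tissue, stood at 18857 RPM in spermatozoa and 54509 in the oocyte, a 2.89-fold difference that is under the 4-fold limit.

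Neighbouring hairpins were compared next, since a cluster is usually transcribed as 1 unit. Taking precursors within 10 kb on 1 strand, 23 clusters had at least 3 measured entries. Arms of 1 hairpin count as separate entries: miR-34b/c has 4 from 2 hairpins, and miR-144 with miR-451a 3 from 2. Of all measured miRNAs 26.7% were higher and 26.3% lower. In 4 of the 23 clusters every measured entry was higher in spermatozoa (miR-34b/c, miR-144 with miR-451a, the Sfmbt2 array, and miR-199a with miR-214 in Dnm3os). In 3 every one was lower (miR-290, miR-183 with miR-96 and miR-182, and miR-322 with miR-503). Of these 7 clusters miR-183 with miR-96 and miR-182 alone had 100 reads in each library for every measured entry. In the miR-290 cluster 0 of 11 did, in the miR-322 cluster 1 of 4, in the Sfmbt2 array 1 of 7, in the Dnm3os cluster 1 of 3, in miR-34b/c 2 of 4 and in miR-144 with miR-451a 2 of 3. In 5 none was called, in 9 some were called in 1 direction, and 2 held calls both ways. The first of these was the miR-17/92 cluster on chromosome 14, known for driving cell growth. miR-17-5p stood at 610.2 RPM in spermatozoa and 3814 in the oocyte, while miR-19a-3p stood at 412 and 68.3. miR-18a-5p, of the same cluster by its sequence position at 115043867 to 115043889, stood at 1743 and 94.5 RPM. miR-92a-3p, which also has a locus on the X chromosome, stood at 802 and 5241, on the side of miR-17-5p. miR-20a-5p, which has the seed of miR-17-5p, lay closer to equal at 2709 and 3803. In the paralogous cluster within Mcm7, miR-25-3p stood at 4842 and 571 RPM.

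The second cluster with calls both ways was the X-linked one expressed in the testis, between 66776757 and 66839125. Over this and its nearby entries 29 were measured, of which 7 were higher and 2 lower (median 0.96), beside 26.7% and 26.3% of all measured miRNAs, and 21 had 100 reads in each library. The share of these that was higher is near that of all miRNAs. miR-741-3p, its most abundant member in spermatozoa, stood at 6233 RPM there and 10825 in the oocyte. miR-878-5p stood at 5197 and 4924, and miR-881-3p at 4049 and 2332. These 3 are among the 20 that were under 4-fold apart in the 2 gametes. The largest difference was that of miR-871-3p, at 243 RPM in spermatozoa and 22477 in the oocyte, or 92.7-fold lower in spermatozoa [82.7 to 104]. miR-470-3p, at 112 and 7.46 RPM, lay farthest on the other side. The entries miR-465b-3p and miR-465c-3p carry equal reads in both libraries, and are counted here as listed though they may not be separate measurements.

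Reads were then summed over miRNAs with the same seed. RefSeq sequences were matched by name for 1090 of 1316 miRNA entries, among them 257 of the 300 measured. All matched entries together held 49.8% of miRNA reads in spermatozoa and 91.3% in the oocyte. Unmatched miRNAs, with miR-143-3p, miR-34c-5p, miR-378a-3p, miR-30b-5p and miR-30d-5p among them, are not in these sums. The let-7 seed GAGGUAG ranked first among matched seeds in both gametes, with 11.2% of miRNA reads in spermatozoa and 20.7% in the oocyte. The miR-10 seed ACCCUGU ranked next in spermatozoa, at 3.57% against 0.351%, a 10.2-fold [9.91 to 10.4] difference. The miR-182 seed UUGGCAA and the miR-3471 seed GAGAUCC followed the let-7 seed in the oocyte, at 15.9% and 14.5% against 0.511% and 0.00460% in spermatozoa. Summing over a seed levelled out some single differences. The miR-17-5p seed AAAGUGC, shared by 6 matched entries, held 0.983% in spermatozoa and 1.09% in the oocyte, led by miR-93-5p in the former and miR-17-5p in the latter. For the miR-16 seed AGCAGCA it was 1.82% and 0.841%.

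**Figure D4:**
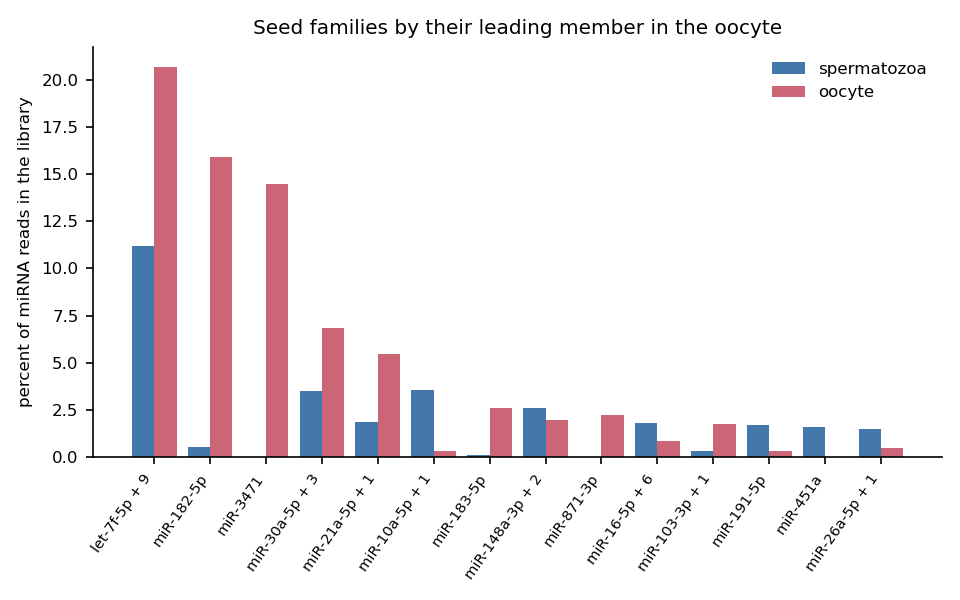
Share of all miRNA reads in spermatozoa (blue) and the oocyte (red), in percent, for the 14 matched seed families with the largest share in either gamete, named by the leading member in the oocyte and the number of other entries with that seed. Unmatched miRNAs, such as miR-143-3p, miR-34c-5p and miR-378a-3p, are not included. The miR-30a-5p bar leaves out miR-30b-5p and miR-30d-5p, which were not matched. The miR-182-5p, miR-3471 and miR-871-3p bars are tall in the oocyte only.

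Since both arms of a hairpin come from 1 precursor, their ratio does not depend on the scaling of the library. Of 110 hairpins with both arms listed and at least 100 reads in each library, 92 had a 5p share within 10 percentage points in the 2 gametes and 9 differed by over 20 points. In 6 the leading arm was not the same. For miR-871 the 5p arm held 90.3% [89.2 to 91.3] of the hairpin's reads in spermatozoa and 3.46% [3.30 to 3.63] in the oocyte. The 5p arm stood at 2266 RPM in spermatozoa and 806 in the oocyte, so the 2 arms lay on opposite sides. In the 3 other libraries the 5p share of miR-871 was 5.05% in the zygote, 4.11% in spermatogonia and 5.71% in primordial germ cells, all near the oocyte's value. For miR-151 the 5p share was 86.1% [84.3 to 87.7] in spermatozoa and 32.9% [30.7 to 35.1] in the oocyte, and for miR-872 72.3% [70.1 to 74.3] and 30.9% [27.1 to 35.0]. miR-106b went the other way, at 43.3% [39.7 to 46.9] and 90.2% [88.3 to 91.9]. The other 2 were miR-28a and miR-126a, the latter with 51.1% [46.4 to 55.8] in spermatozoa, an interval that includes equal arms. How reads shared with copies of an arm elsewhere were counted is not given in the labels.

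**Figure D5:**
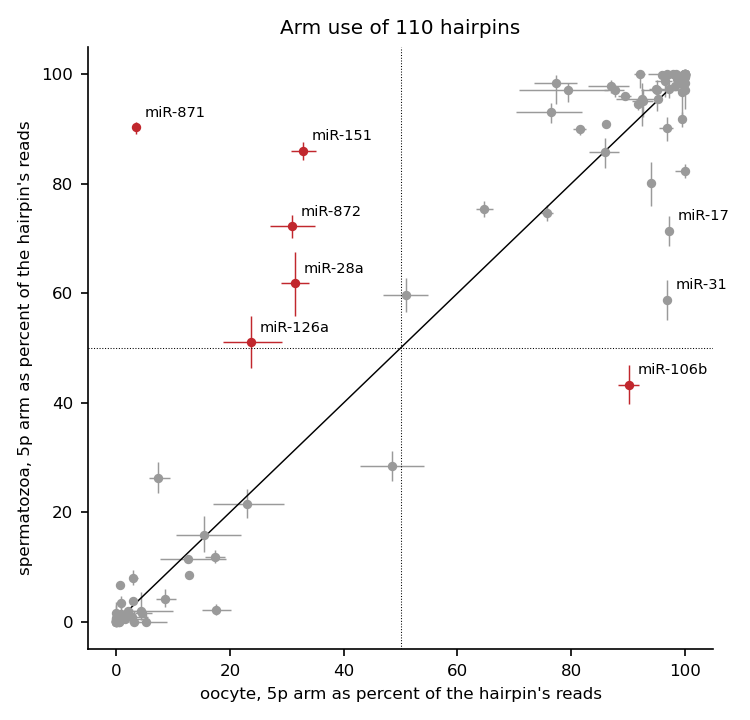
The 5p arm's share of a hairpin's reads, in percent, in the oocyte (horizontal axis) and in spermatozoa (vertical axis) for 110 hairpins, with exact 95% intervals for counting error. The solid line marks equal shares and dotted lines 50%. Most points lie near the corners on the line, and the 6 hairpins with another leading arm are in red, with miR-871 farthest from it.

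SnoRNA reads were led in both gametes by SNORD60, a C/D box snoRNA, with 88.1% of the class in spermatozoa and 79.1% in the oocyte. SNORD32, from an intron of the ribosomal protein gene Rpl13a, stood at 62488 RPM of snoRNA reads in spermatozoa and 1761 in the oocyte, and was 35.5-fold higher in spermatozoa [33.6 to 37.5]. Its neighbours in that host gene did not follow it alike. SNORD34 stood at 189 and 26.7 RPM, SNORD35 at 12064 and 23373, and SNORD33 at 69.4 and 132. U3, which acts in the first cuts of the ribosomal RNA precursor, stood at 782 RPM in spermatozoa and 58.5 in the oocyte under its main entry and at 131 and 14.6 for U3A, but at 205 and 466 for U3B. These 3 entries are near-identical copies. SNORD105 stood at 7803 RPM in spermatozoa and 1503 in the oocyte. Some snoRNAs have several entries, counted here as listed though they may not be separate measurements. U39 and SNORD39 carry equal reads in both libraries, and SNORD82 and Z25 have a joint entry beside their own.

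Fragments high in the oocyte came from several kinds of snoRNA. scaRNA6, a small Cajal body RNA of the kind that guides modification of spliceosomal RNAs, stood at 25399 RPM in the oocyte and 127 in spermatozoa, and was 199-fold lower in spermatozoa [168 to 238]. SNORD63 stood at 56358 and 1618 RPM and SNORD21 at 14351 and 635. SNORD64, from the imprinted Snrpn locus, stood at 832 and 2.92 RPM, the latter from 3 reads. Of 14 measured H/ACA box entries 10 were lower and 0 higher, beside 45.1% and 7.84% of all measured snoRNAs, with a median of -3.52 against -1.40 over all. Only 3 of the 14 had 100 reads in each library, and most of those lower passed the minimum through the oocyte, such as SNORA70 with 497 reads there and 10 in spermatozoa, and MBI-87 with 450 and 14. Of 80 measured C/D box entries 32 were lower and 7 higher (median -1.13), among the former SNORD24 at 1099.9 RPM in the oocyte and 19.5 in spermatozoa. Beside the same 45.1% of all measured snoRNAs, 4 of 6 measured members of the Snhg1 host gene were lower, and 3 of 5 in Gas5. Among the former was SNORD31, at 1155 RPM in the oocyte and 76.4 in spermatozoa. Other scalings raise every snoRNA log2 difference by 0.98 to 1.57, and many of these calls are then lost. Over those scalings 6 to 8 of 14 H/ACA entries were lower and 1 higher, with medians below 0. In Snhg1 2 to 3 of 6 were lower and in Gas5 1 of 5, also with medians below 0. Beside these, 22 to 26 of all 102 measured snoRNAs were lower and 13 to 19 higher. Without the most abundant entries it was 16 and 16 of 94. The Gas5 share is near that of all measured snoRNAs. The C/D box median ranged from -0.16 to 0.43, with 12 to 16 lower and 11 to 17 higher.

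PiRNA entries carry database names without sequence, so they are described by name and value only. PIR64428, the most abundant in spermatozoa, stood at 363421 RPM of piRNA reads there and 26643 in the oocyte, and was 13.6-fold higher in spermatozoa [13.6 to 13.7]. PIR64874 and PIR64875 stood at 69711 and 69740.4 RPM in spermatozoa and 13276 and 13285 in the oocyte, values that lie within 1% of each other. The oocyte was led by PIR75142, at 61758 RPM against 23350.4 in spermatozoa, followed by entries of consecutive names, of which mmur001134778 stood at 34978 and 9491. PIR232912 stood at 25460.4 RPM and 7.93 in spermatozoa, or 3209-fold lower in spermatozoa [2735 to 3818], PIR266449 at 11002 and 3.46, and PIR211357 at 6669.9 and 1.87. In the opposite direction PIR224172 stood at 3135 RPM in spermatozoa and 1.10 in the oocyte. PIR219263 had 13137 reads in spermatozoa and 3 in the oocyte, a ratio of 3489 with an interval of 1194 to 16923. Entries named PIR held 72.3% of piRNA reads in spermatozoa and 53.4% in the oocyte, but PIR64428 alone held 36.3% of all piRNA reads in spermatozoa. The 2892 measured PIR entries had a median of -0.88, with 1278 lower and 1149 higher, beside 35.3% and 31.6% of all measured piRNAs. Those named mmur and chrM, for the mitochondrial chromosome, held 0.166% and 0.0879%. Runs of consecutive names with reads within 10% of each other made up 25.5% of measured piRNA entries. Counted once each, 1436 were higher and 1782 lower.

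Among endo-siRNAs 3103 of the 21415 measured entries were under 4-fold apart, and all measured entries held 78.1% of the class's reads in spermatozoa and 93.1% in the oocyte. Those called higher in spermatozoa held 74.0% of the class there and 0.848% in the oocyte. Those called lower held 1.15% and 88.7%, shares that the selection by fold sets in part. mmur000042018, the most abundant in spermatozoa, stood at 92451 RPM of endo-siRNA reads there and 19.6 in the oocyte. In the other libraries it stood at 43084 RPM in primordial germ cells, 107 in spermatogonia and 1.29 in the zygote. mmur000483664 stood at 16348 RPM in spermatozoa, from 22400.3 reads, and at 0.231 in the oocyte, from 6. The oocyte was led by mmur001272954, at 160993 RPM against 428, followed by mmur001273859 at 33916 against 79.6. Its numbered neighbour mmur001273858 stood at 32233 and 74.4. Names with chrUn, for unplaced sequence, held 4.61% of the class in spermatozoa and 0.359% in the oocyte. Of 164 measured chrUn entries 122 were lower and 31 higher in spermatozoa (median -3.70), beside 78.9% and 6.64% of all measured endo-siRNAs. How far the chrUn median depends on the pseudocount was not tested.

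The number of endo-siRNAs called lower is bounded by depth. The oocyte's class total was 18.95 times that of spermatozoa, so an entry of 100 oocyte reads at equal RPM would have 5.28 reads in spermatozoa. Of the 16889 called lower, 11963 (70.8%) had reads that round to 0 in spermatozoa. At a minimum of 1000 reads over the pair, 3026 of 3329 (90.9%) were lower and 170 (5.11%) higher. That minimum is in reads, which an entry reaches at a lower RPM in the deeper oocyte library. By its rule the set favours entries high in the oocyte, as does the minimum of 100 reads, so these shares support no direction. Of 280 entries with at least 100 reads in both libraries, 238 (85%) were higher and 5 (1.79%) lower, a set that by its rule needs a high level in the smaller library. With calls only where the whole counting interval was past 4-fold, 7501 (35%) were lower and 1302 (6.08%) higher. For the other entries called lower, a 4-fold difference was not beyond counting error at this depth.

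The reads in the called entries were then looked at in the 3 libraries that had no part in the calls. MiRNAs called higher in spermatozoa held 4.43% of miRNA reads in the zygote, 27.2% in spermatogonia and 3.30% in primordial germ cells. Those called lower held 37.4%, 19.8% and 51.2%. In spermatogonia miR-143-3p alone, at 230893 RPM, made up most of the first share. For piRNAs the set called higher held 4.53% in the zygote, 23.8% in spermatogonia and 22.4% in primordial germ cells, and the set called lower 51.0%, 18.1% and 12.3%. The endo-siRNAs called higher held 39.0% in primordial germ cells, 7.24% in spermatogonia and 0.945% in the zygote, and those called lower 24.5%, 48.5% and 87.8%. In each of these 3 classes the zygote's shares of the called sets lay nearer to the oocyte's than to those of spermatozoa. The piRNAs under 4-fold apart held 40.6% in the zygote, nearer to the 34.1% of spermatozoa than to the oocyte's 60.3%. Zygotes and oocytes also share maternal strain, donor age and hormone priming, and the part of these in the shares was not tested.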

How the data were processed

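Small RNA libraries of spermatozoa and oocyte, 1 each, were used with their miRNA, snoRNA, piRNA and endo-siRNA tables. The read column holds estimated counts as deposited by the authors, since 17.7% of miRNA and 78.2% of piRNA values in spermatozoa are not whole. The TMM column, named so per the file headers, is a signal that the authors deposited, equal to the reads times 1.35 in spermatozoa and 0.937 in the oocyte, and served only as an alternative. Bowtie 0.12.7, DESeq and mm10 are named without roles per the submitters' processing notes. How reads were trimmed, aligned and shared between several matching entries is not given in the sources used here. The tables hold no read lengths or sequences, so whether a read listed in a class is a small RNA of that class was not tested.

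An absent entry was taken as 0. The 6 snoRNA entries that name no single snoRNA (0.896% and 3.21% of the file's reads) were left out. Reads were scaled to 1000000 reads of the class in each library. Log2 differences used a pseudocount of 0.5 reads. Intervals are Clopper-Pearson for shares and exact conditional Poisson for ratios, on rounded reads, computed with scipy 1.17.1. The ratio intervals were tested on simulated data, and the share intervals were not. Class totals were 1216358 and 2010462 (miRNA), 1027717 and 749747 (snoRNA), 18212803 and 14513316 (piRNA) and 1370190 and 25968584 (endo-siRNA) in spermatozoa and oocyte. The samples were grouped by their labels. The members, lists and naming rule were chosen with earlier results of these data known, and 2 snoRNA list patterns (Rpl13a and U3) were respelt after the names in the files were seen. That rule took the 10 miRNAs at each end of the ratio, the 10 most abundant in each gamete, 5 within 1.5-fold, list members, and 5 of each kind in other classes. Not all entries it took in the other classes are described. Members of clusters and hairpins that lie outside these lists were named after their values were seen. Precursor positions are from GENCODE vM21 (GRCm38), by gene name, found for 286 of 300 measured miRNAs. Alternatives were other scalings (edgeR 4.0.16 TMM and DESeq2 1.42.0 size factors on rounded reads among them), minimums, a pseudocount of 5 and runs counted once. Requiring 100 reads in each library and intervals wholly past 4-fold were chosen after seeing the data, as were the counts of snoRNA list members under the other scalings.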

Additional observations from a re-analysis of the deposited data

How the results depend on the processing

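Counts of entries at least 4-fold higher and lower in spermatozoa followed the read minimum in each class. For miRNAs (80 and 79) they were 137 and 129 at 20 reads, 434 and 226 at 1, 29 and 40 at 1000, and 36 and 20 with 100 reads in each library. For snoRNAs (8 and 46) they were 15 and 75 at 1 read, 3 and 11 at 1000, and 3 and 18 with 100 in each. For piRNAs (1693 and 1889) they were 8078 and 5435 at 20, 49697 and 16933 at 1, 196 and 374 at 1000, and 86 and 174 with 100 in each. For endo-siRNAs (1423 and 16889) they were 6253 and 26549 at 20, 58243 and 26549 at 1, 170 and 3026 at 1000, and 238 and 5 with 100 in each. Endo-siRNAs called lower numbered 6353 with a pseudocount of 5 and 7501 with the whole interval past 4-fold. The median log2 difference of all measured endo-siRNAs moved from -3.87 to -1.10 with a pseudocount of 5.

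By scaling, snoRNAs gave 19 and 22 over all 4 classes, 14 and 25 with edgeR TMM as with DESeq2 factors, 13 and 26 with the deposited factor, and 16 and 16 without the most abundant entries. Endo-siRNAs called higher numbered 844 over all 4 classes and 770 with the deposited factor. PiRNAs moved from 47.3% higher among those called to 63.1% over all 4 classes and 57.3% with the deposited factor, with counts of 2343 and 1371, and of 2065 and 1538. The scalings moved every log2 difference by -0.34 to 0.26 for miRNAs and by 0.98 to 1.57 for snoRNAs. For piRNAs it was 0.32 to 1.31, and for endo-siRNAs -3.72 to -0.18. DESeq2 gave piRNAs equal factors in both gametes.

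Without the 5 most abundant entries of each class in either library, class shares in spermatozoa and oocyte were 5.34% and 2.71% for miRNAs, 0.313% and 0.208% for snoRNAs, 82.2% and 34.5% for piRNAs and, for endo-siRNAs, 12.2% and 62.6%. Of 72 named entries past 4-fold, all kept their direction and stayed past 4-fold under the other scalings and the pseudocount of 5. That is 409 of 409 values, for the entries of extreme ratio or high abundance only. Many of these were picked for their ratio in these same libraries, and each scaling moves all log2 differences of a class by 1 amount. The outcome was thus largely set in advance and is no support for the differences. No paired analysis was possible because each gamete has 1 library, and leaving out a replicate could not be done. The cause of these shifts was not tested, except that a minimum changes which entries are counted. With 1 library a side, how far another pool of either gamete would differ is unknown.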
